A study of Mus musculus with 6 samples.

Results

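Ifit1, Ifit2, Ifit3, Isg15, Usp18, Isg20, Rsad2 (viperin), Cmpk2 and Ifi44 are 9 interferon-stimulated genes, followed here in the livers of mice given LPS with GalN, set against mice given LPS. They were taken from the gene description that each array target carries. A target was kept where the description names the product of 1 of the 9 genes. This gave 15 of the 44170 target rows on the arrays and covered 8 of the 9 genes. Usp18 is not analysed here. All mice were wild-type C57 BL/6 males of 9 to 10 weeks. The LPS/GalN group (n = 3 mice) received 0.01 µg of LPS (lipopolysaccharide, a component of the bacterial outer membrane) with 20 mg of GalN (D-galactosamine, a hepatotoxic sugar that traps uridine nucleotides in hepatocytes), and the LPS group (n = 3 mice) received 0.01 µg of LPS. Liver RNA was taken after 2.5 h in both groups and measured on 1 single-colour NimbleGen array per mouse. Mice given GalN without LPS and untreated mice are not analysed here, so a change is always that of LPS/GalN against LPS.

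LPS is sensed by the receptor Tlr4, whose adaptor Ticam1 leads to the kinases Tbk1 and Ikbke and to transcription of interferon beta. Secreted type I interferon binds the receptor of Ifnar1 and Ifnar2, and a transcription factor that contains Stat2 and Irf9 then binds interferon-stimulated response elements (ISREs) in promoters. The genes described here are among the classical targets of that factor, and in liver they are transcribed by hepatocytes as well as by resident macrophages and endothelial cells.

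The values are RMA intensities (background-corrected, normalized between arrays and summarised over the 3 probes of a target), and changes are differences of log2 intensity. The median over all target rows was 60.4 to 63.1 per array, and a row of 5000 random probes, taken as background, stood at 31.3 to 34.7. All 10 hepatocyte markers were above that background on all 6 arrays, with sums of 367519 to 392392 in LPS/GalN and 369762 to 411065 in LPS, and 0 of the 10 differed past the threshold. Of the 10, 8 averaged over 15 on the log2 scale in at least 1 group, close to the brightest signals, where differences can be compressed; the other 2 (Apob and Tat) summed to 19869, 23561 and 30511 in LPS/GalN, against 33766, 21054 and 34963 in LPS. In 4 of the 6 arrays transcripts of another organ were high. The summed intensity of 10 T cell and thymus markers was 516, 13235 and 8364 in LPS/GalN replicates 1, 2 and 3, against 550, 510 and 753 in LPS replicates 1, 2 and 3. That of 10 intestine and pancreas markers was 1621, 1435 and 1396 in LPS/GalN, against 16986, 18793 and 2001 in LPS, with the 4 pancreas genes at 22.1 to 113 on all arrays and the intestine genes Vil1 (structural protein of microvilli) and Fabp2 (intestinal fatty acid-binding protein) the largest parts of the sums in LPS replicates 1 and 2. Results are therefore also given without LPS replicates 1 and 2, and without LPS/GalN replicates 2 and 3.

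Livers of LPS/GalN mice held far less of these transcripts than livers of LPS mice. By limma over all 44170 rows, 14 of the 15 target rows were lower in LPS/GalN at an adjusted p under 0.05, where 3.13% of all rows were. None was higher past it, against 0.654% of all rows, and all 15 log2 changes were negative. The 3 LPS/GalN values lay below the 3 LPS values in all 15 rows, a pattern that 11.1% of all rows had. The median log2 change of the 15 rows was -3.36, with a range of -5.18 to -1.09, against a median of 0.053 and quartiles of -0.268 and 0.338 over all rows. Taking the brightest row of each gene, 8 of 8 genes were lower and the median was -3.81. For Ifit3 that row lies at the neighbouring near copy Ifit3b. The lowest changes were those of Cmpk2 and Ifit1, and 6 of the 15 rows were among the 100 rows with the lowest log2 changes on the array. In whole liver, fewer cells of a type and less RNA per cell cannot be told apart.

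**Figure D1:**
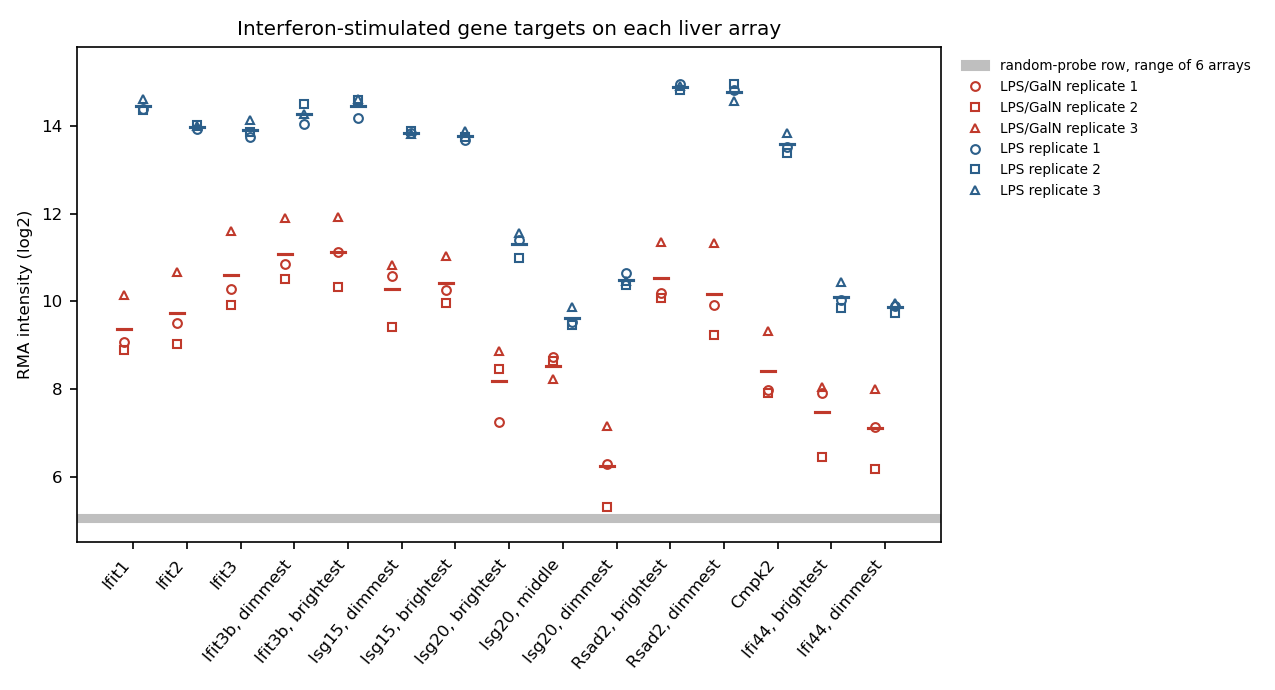
RMA intensity (log2 axis) of the 15 target rows on each of the 6 arrays, LPS/GalN in red left of LPS in blue, with a bar at each group's mean and the grey band marking the range of the random-probe row. The red symbols lie below the blue ones in all 15 rows, by a gap of 0.75 to 4.21 log2, and the red triangles (LPS/GalN replicate 3) are the highest red symbol in 14 of 15 rows.

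The median change kept its size when the arrays with transcripts of another organ were left out, while single rows moved and fewer rows were called. With LPS/GalN replicate 1 alone in its group, the brightest Isg20 target had a log2 change of -4.07, against -3.12 on all arrays. The brighter Ifi44 target had -2.19, against -2.64. Without LPS/GalN replicates 2 and 3, 13 of 15 rows were lower past the threshold and the median log2 change was -3.62. Without LPS replicates 1 and 2, which leaves 1 LPS array, the median was -3.53, but 0 of 15 rows and 0 of all 44170 rows passed limma's threshold, with adjusted p from 0.0542 to 0.333 for the 15 rows. Between LPS/GalN replicate 1 and LPS replicate 3, the pair of arrays with neither set of transcripts high, all 15 rows were lower in LPS/GalN, by log2 differences of -5.87 to -1.15, with a median of -3.85 against 0.036 over all rows. That last pair has no replicates and no test.

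The promoter sequences below show where the ISRE core lies in the genes that hold it. RefSeq windows on GRCm38.p6 (250 bases before to 50 after an annotated start) were found for 8 of the 9 genes and for Ifit3b, a near copy of Ifit3 that 2 of the targets match, in 12 windows. The ISRE core (GAAA, any 2 bases, GAAA), searched on both strands, was present in 5 of these 12 windows and in 3.44% of all 32851 windows of that table. Printed are the bases from 200 to 51 before the start, 5′ to 3′ on the gene's strand, with the ISRE cores in capitals (a core on the other strand reads TTTC, any 2 bases, TTTC).
Ifit1 (chr19:34640689-34640838, plus strand): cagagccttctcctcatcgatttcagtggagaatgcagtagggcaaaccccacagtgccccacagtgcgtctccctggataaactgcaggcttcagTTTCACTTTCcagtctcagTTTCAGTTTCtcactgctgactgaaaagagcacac
Ifit3 (chr19:34583329-34583478, plus strand): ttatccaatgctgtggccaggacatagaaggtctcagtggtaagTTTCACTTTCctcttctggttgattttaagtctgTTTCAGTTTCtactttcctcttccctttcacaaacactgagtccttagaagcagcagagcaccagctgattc
Ifit3b (chr19:34607757-34607906, plus strand): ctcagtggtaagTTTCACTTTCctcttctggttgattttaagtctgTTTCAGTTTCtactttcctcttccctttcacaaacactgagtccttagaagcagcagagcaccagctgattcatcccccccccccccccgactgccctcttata
Isg15 (chr4:156200869-156201018, minus strand): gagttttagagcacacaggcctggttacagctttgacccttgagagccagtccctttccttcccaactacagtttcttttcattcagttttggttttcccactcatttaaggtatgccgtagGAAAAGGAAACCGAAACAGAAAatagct
Rsad2 (chr12:26456503-26456652, minus strand): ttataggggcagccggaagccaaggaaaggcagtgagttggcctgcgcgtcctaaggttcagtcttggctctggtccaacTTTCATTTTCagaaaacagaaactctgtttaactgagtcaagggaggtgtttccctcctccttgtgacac
Ifit1, Ifit3 and Ifit3b each hold a pair of cores, and Isg15 holds 3 that overlap one another into 1 run. Rsad2 holds 1. The Ifit3 and Ifit3b stretches share an identical run of 118 bases that contains both cores, placed 32 bases farther from the start in Ifit3b. No core was found in the windows of Ifit2, Isg20, Cmpk2 and Ifi44, which says only that these letters are not in those 300 bases. The core of the interferon gamma-activated site (TTC, any 3 bases, GAA), which reads the same on both strands, was in 2 of the 12 windows (Ifit2 and Isg20) and in 8.3% of all. The NF-kB core (GGG, any 5 bases, CC), on both strands, was in 6 of the 12 windows and in 50.8% of all. The NF-kB match of Ifit2 overlaps its match to the gamma-activated site.

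The IFIT genes encode cytoplasmic proteins with tetratricopeptide repeats that bind viral RNA. They lie side by side on chromosome 19. Ifit1, whose product binds RNA with a cap that lacks ribose methylation, had intensities of 541, 470 and 1140 in LPS/GalN replicates 1, 2 and 3, against 21264, 21154 and 25264 in LPS replicates 1, 2 and 3. The groups were far apart, and LPS/GalN replicate 3 was the highest of its group. On the log2 scale Ifit1 (mm9 chr19:34715406-34724060) averaged 9.37 ± 0.69 in LPS/GalN and 14.46 ± 0.15 in LPS (SD, n = 3 each), a log2 change of -5.09 ± 0.35 (SE), which is 34-fold lower (95% confidence interval 19.5 to 59.2, adjusted p = 0.000353). The files give coordinates of the gene and not of the probes, so no target could be placed in a coding or untranslated part of its gene.

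Ifit2 (mm9 chr19:34625435-34651013), whose product binds AU-rich RNA, stood at 722, 524 and 1621 in LPS/GalN livers, against 15643, 16678 and 16431 in LPS livers. The LPS values were within 0.09 log2 of each other, while those of LPS/GalN spanned 1.63 log2, and the groups did not overlap. The log2 change was -4.26 ± 0.40 (SE), 19.1-fold lower, with an adjusted p of 0.00116.

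Ifit3, whose product stabilises Ifit1 in humans, had 1 target at its own locus (mm9 chr19:34658052-34663219). It read 1254, 965 and 3127 in LPS/GalN, against 13740, 14822 and 18062 in LPS. All LPS/GalN values were below all LPS values, and the log2 change was -3.31 ± 0.42 (SE), 9.91-fold lower (adjusted p = 0.00436). A pair of further targets, described as Ifit3, lies at the neighbouring copy Ifit3b (mm9 chr19:34682446-34687891 for the dimmer 1).

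The brighter Ifit3b target read 2220, 1280 and 3909 in LPS/GalN, against 18543, 24619 and 25028 in LPS. It was 10.1-fold lower (log2 change -3.34 ± 0.40 SE, adjusted p = 0.00332). The dimmer one, with 1853, 1443 and 3855 against 16878, 23318 and 19751, was 9.1-fold lower (adjusted p = 0.00312). The 3 targets gave nearly the same change, but near-identical copies can share labelled RNA, so Ifit3 and Ifit3b cannot be told apart with certainty. Within the family, the confidence interval of Ifit1 (log2 -5.89 to -4.28) ends where that of the Ifit3 target begins (-4.28 to -2.34), and the difference between the changes was not tested.

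Isg15 encodes a ubiquitin-like protein that is joined to other proteins and is also secreted. Its brighter target by the 6-array mean (mm9 chr4:155573574-155574894) read 1217, 1001 and 2086 in LPS/GalN, against 13090, 13765 and 15220 in LPS. The groups did not overlap, and the lowest LPS liver was 2.65 log2 above the highest LPS/GalN liver. The log2 change was -3.36 ± 0.30 (SE), 10.3-fold lower, with a 95% confidence interval of 6.33 to 16.6 and an adjusted p of 0.00107. The other target of Isg15 read 1519, 683 and 1814 against 14610, 15224 and 14417, and was 11.9-fold lower (adjusted p = 0.00175).

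The enzymes that join Isg15 to its substrates had smaller log2 changes than Isg15 itself, a difference that was not tested. Of the 8 genes listed for conjugation and removal, Isg15 included, 6 had a target (Herc6 and Usp18 are not analysed here), of which 3 were lower past the threshold and 0 higher by limma (4 and 0 at an unadjusted p under 0.05), with a median log2 change of -1.08. Over all rows, 3.13% were called lower, and 4034 of 44170 were lower at an unadjusted p under 0.05. Uba7, the activating enzyme of Isg15, read 261, 224 and 275 in LPS/GalN, against 596, 603 and 513 in LPS, a log2 change of -1.17 ± 0.22 (SE, adjusted p = 0.0236). Trim25, an E3 ligase that can attach Isg15, had a log2 change of -1.69 ± 0.24 (adjusted p = 0.00681). Ube2l6, the conjugating enzyme, read 2898, 2157 and 2709 against 5292, 4628 and 5304, groups that did not overlap, with a log2 change of -0.98 ± 0.22 that missed the threshold (adjusted p = 0.0565).

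Isg20 encodes an exonuclease that degrades single-stranded RNA. Its 3 targets overlap on chromosome 7 and did not agree in size. The target with the highest mean (mm9 chr7:86059120-86065224) read 151, 352 and 465 in LPS/GalN, against 2700, 2022 and 2997 in LPS, 8.72-fold lower (log2 change -3.12 ± 0.41 SE, adjusted p = 0.00515). The dimmest target, which the files describe under the synonym DnaQL, read 77.5, 39.8 and 143 against 1611, 1334 and 1409. It was 19-fold lower (adjusted p = 0.00166), and its LPS/GalN replicate 2 value stood only 0.21 log2 above the background of that array, so the lower end of this change is close to what the array can measure.

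The middle target of Isg20 was the single row that missed the threshold. It read 422, 398 and 299 in LPS/GalN, against 732, 710 and 934 in LPS. Here too the groups did not overlap, but LPS/GalN replicate 3 was the lowest and not the highest of its group. The log2 change was -1.09 ± 0.24 (SE), 2.13-fold lower, with an adjusted p of 0.0518. Its confidence interval (log2 -1.65 to -0.53) did not overlap that of either other Isg20 target (-4.08 to -2.17 and -5.24 to -3.26).

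Rsad2 encodes viperin, a radical S-adenosyl methionine enzyme that makes a chain-terminating nucleotide from CTP. Its brightest target (mm9 chr12:27129348-27141289) read 1159, 1078 and 2611 in LPS/GalN, against 31897, 29179 and 30632 in LPS. The LPS values were among the high signals of the arrays, with 200 of the 44170 rows above their mean and a highest signal of 61993 for any row. The log2 mean was 10.53 ± 0.71 in LPS/GalN and 14.90 ± 0.064 in LPS (SD, n = 3 each), and the log2 change of -4.36 ± 0.35 (SE) made Rsad2 20.6-fold lower (95% confidence interval 11.8 to 36.1, adjusted p = 0.00065). The other Rsad2 target read 969, 603 and 2561 against 28992, 31775 and 24295, 24.6-fold lower (adjusted p = 0.00197). Both targets put LPS/GalN replicate 3 highest in its group and leave the groups far apart.

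Cmpk2, a mitochondrial nucleotide kinase gene that neighbours Rsad2, is read in the opposite direction, with annotated starts 12763 bases apart on GRCm38.p6. The Cmpk2 target (mm9 chr12:27154180-27164702) read 251, 242 and 645 in LPS/GalN, against 11866, 10745 and 14631 in LPS. It had the lowest change of the 15 rows, a log2 change of -5.18 ± 0.39 (SE), 36.3-fold lower (95% confidence interval 19.4 to 67.9, adjusted p = 0.000514). Its interval overlapped those of Rsad2 and Ifit1, so the order among these 3 genes is within their error.

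Ifi44, which encodes a cytoplasmic protein with a GTP-binding motif, had some of the smaller changes of the group. Its brighter target (mm9 chr3:151394022-151412813) read 240, 87.2 and 263 in LPS/GalN, against 1053, 914 and 1379 in LPS. The groups did not overlap, LPS/GalN replicate 2 being the lowest. The log2 change was -2.64 ± 0.43 (SE), 6.22-fold lower (adjusted p = 0.0131). This call was lost without LPS replicate 1 (adjusted p = 0.0563, log2 change -2.67) and with LPS/GalN replicates 2 and 3 left out (adjusted p = 0.0768, log2 change -2.19). The other Ifi44 target, at the same coordinates, read 142, 71.9 and 255 against 952, 853 and 1001, 6.79-fold lower (adjusted p = 0.00986).

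**Figure D2:**
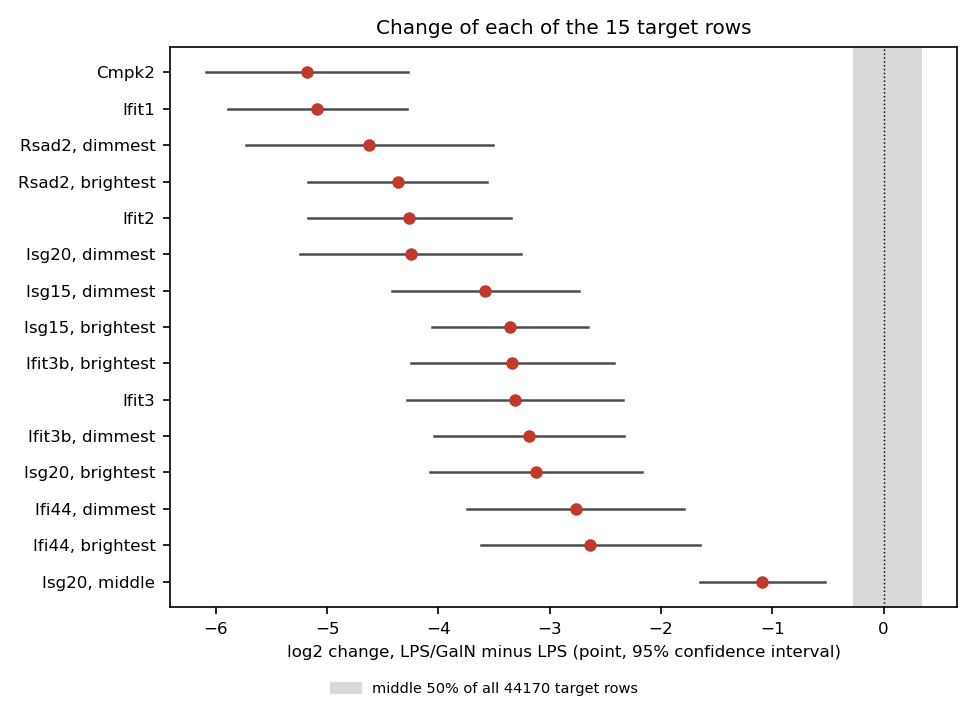
log2 change (LPS/GalN minus LPS) of each target row with its 95% confidence interval from limma, ordered by size; the grey band spans the quartiles of all 44170 rows, -0.268 to 0.338. Cmpk2 (-5.18) and Ifit1 (-5.09) stand at the low end and the middle Isg20 target (-1.09) at the high end, all 15 left of the grey band.

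In the 15 rows, the LPS/GalN mice differed from each other more than the LPS mice did, and the rows shared the pattern. The range over the 3 LPS/GalN arrays exceeded the range over the 3 LPS arrays in 15 of 15 rows, against 54.6% of all rows and 70.8% of the rows called lower. Its median was 1.59 log2 in LPS/GalN and 0.39 log2 in LPS, where all rows had medians of 0.64 and 0.58. LPS/GalN replicate 3 was the highest of its group in 14 of 15 rows, against 34.8% of all rows and 44.1% of those called lower. Replicate 2 was the lowest in 13, against 34.8% and 48.4%. The median log2 intensity of the 15 rows was 9.50, 9.03 and 10.66 in LPS/GalN replicates 1, 2 and 3, against 13.75, 13.86 and 13.89 in LPS. The LPS values were thus far brighter, and the ranges were not compared with rows of matched intensity. The part of signal level in the narrower LPS range was not tested. Replicates 2 and 3 of LPS/GalN, at opposite ends here, were both high in thymus transcripts, with summed intensities of 13235 and 8364; the part of those transcripts in the pattern was not tested. The 15 rows share mice, arrays and in part genes, so their common order is not 15 separate observations.

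Upstream of these genes, no interferon or receptor gene was called, the interferon genes being near background, while 9 of 18 sensing and signalling genes were lower. Of 14 interferon ligands and receptors, 13 had a target, and limma called 0 lower and 0 higher (2 and 1 at an unadjusted p under 0.05), with a median log2 change of 0.13. Ifnb1 (interferon beta) read 21.1, 27.7 and 41.0 in LPS/GalN, against 40.4, 25.9 and 35.5 in LPS, at the level of the random probes in both groups. Ifng (interferon gamma) read 63.9, 36.2 and 42.5 against 43.9, 65.3 and 83.8, overlapping groups with a log2 change of -0.43 ± 0.33 (SE, adjusted p = 0.555). At the level of Ifnb1 a difference was not detectable. The other interferon genes also stood low, with no value above 95.1, so differences in them could be missed. Of the 13 genes, 8 were above background on all 6 arrays. Ifnar1 read 1615, 1512 and 1650 in LPS/GalN, against 1273, 1379 and 1711 in LPS, overlapping groups with a log2 change of 0.14 ± 0.22 (SE, adjusted p = 0.797), and Ifnar2 had a log2 change of 0.28 ± 0.22 (adjusted p = 0.569). The receptor genes Ifngr2 (interferon gamma), Ifnlr1 and Il10rb (both of interferon lambda), named after their values were seen, had all LPS/GalN values below all LPS values, with log2 changes of -0.86, -0.65 and -0.58 that missed the threshold (adjusted p = 0.0918, 0.28 and 0.321), and Ifnlr1 was near background. Ifna2, also near background, went the other way, with all LPS/GalN values above all LPS values (log2 change 0.76, adjusted p = 0.145). Of all rows, 11.1% lay below in this way and 12.9% above.

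Of the 18 genes of sensing and signalling, 9 were lower past the threshold and 0 higher by limma (12 and 0 at an unadjusted p under 0.05), with a median log2 change of -1.53. Among all rows, 3.13% were called lower, and 4034 of 44170 were lower at an unadjusted p under 0.05. Tlr3, the endosomal receptor of double-stranded RNA, read 52.9, 93.3 and 86.7 in LPS/GalN, against 1141, 973 and 1563 in LPS, 16-fold lower (95% confidence interval 9.82 to 25.9, adjusted p = 0.000514). Ikbke, the inducible kinase of interferon regulatory factors, was 6.4-fold lower (adjusted p = 0.00168). The transcription factor gene Irf1 was 4.96-fold lower (adjusted p = 0.00224), with 2 of its 3 rows past the threshold. Of the ISRE-binding factor, Stat2 fell with a log2 change of -1.74 ± 0.21 (SE, adjusted p = 0.00348). Irf9 fell with -2.08 ± 0.25 (adjusted p = 0.00332), with 1 of its 2 rows past the threshold. Irf7, itself interferon-induced and a driver of interferon genes, read 2034, 1328 and 2327 against 7663, 7050 and 6856, a log2 change of -1.96 ± 0.27 (adjusted p = 0.00568).

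Many other interferon-stimulated genes fell too. Of 56 listed, 49 had a target, 37 were lower past the threshold and 0 higher by limma (42 and 0 at an unadjusted p under 0.05), with a median log2 change of -2.09. Of all rows, 3.13% were called lower, and 4034 of 44170 were lower at an unadjusted p under 0.05. The 5 with the smallest p were Ifi47 (log2 change -4.22), Tgtp1 (-3.45), Irgm1 (-3.52), which encode interferon-inducible GTPases of the immunity-related family, Gbp2 (-3.69), a guanylate-binding protein, and the antiviral GTPase gene Mx2 (-4.93), with adjusted p from 0.000214 to 0.000785. For Tgtp1, 2 of 3 rows passed the threshold. Mx1, named after its values were seen, read 151, 136 and 611 in LPS/GalN, against 14030, 14764 and 14808 in LPS, a log2 change of -5.97 ± 0.53 (SE, adjusted p = 0.00101). With LPS/GalN replicates 2 and 3 left out, 17 of these 49 genes and 2 of the 18 sensing and signalling genes were lower past the threshold, and with LPS replicates 1 and 2 left out 0 of either were, as of all rows. The list is not uniform, since Ifitm1, Epsti1 and Ifi27l2a, named in the same way, had log2 changes of 0.04, 0.09 and 0.37 with overlapping groups.

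Some paralogs and family relatives fell. Of 14 relatives, 13 had a target, 3 were lower past the threshold and 0 higher by limma (3 and 0 at an unadjusted p under 0.05), with a median log2 change of -0.16, beside the 3.13% of all rows called lower. The 3 were Ifit3b, which is already among the 15 rows, Ifit1bl1 and Usp25. Ifit1bl1, an Ifit1-like gene, read 23.7, 30.1 and 34.5 in LPS/GalN, above background on 1 of the 3 arrays, against 164, 69.7 and 107 in LPS (adjusted p = 0.0213), so the size of its fall is poorly measured. Usp25, a deubiquitinating enzyme gene, had a log2 change of -1.04 ± 0.21 (adjusted p = 0.0357), with 1 of its 2 rows past the threshold. Leaving out any 1 array lowered the 3 calls to 1 or 2. Cmpk1, the cytosolic counterpart of Cmpk2, and Ifi44l had log2 changes of -0.06 ± 0.23 and 0.14 ± 0.36, with overlapping groups.

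**Figure D3:**
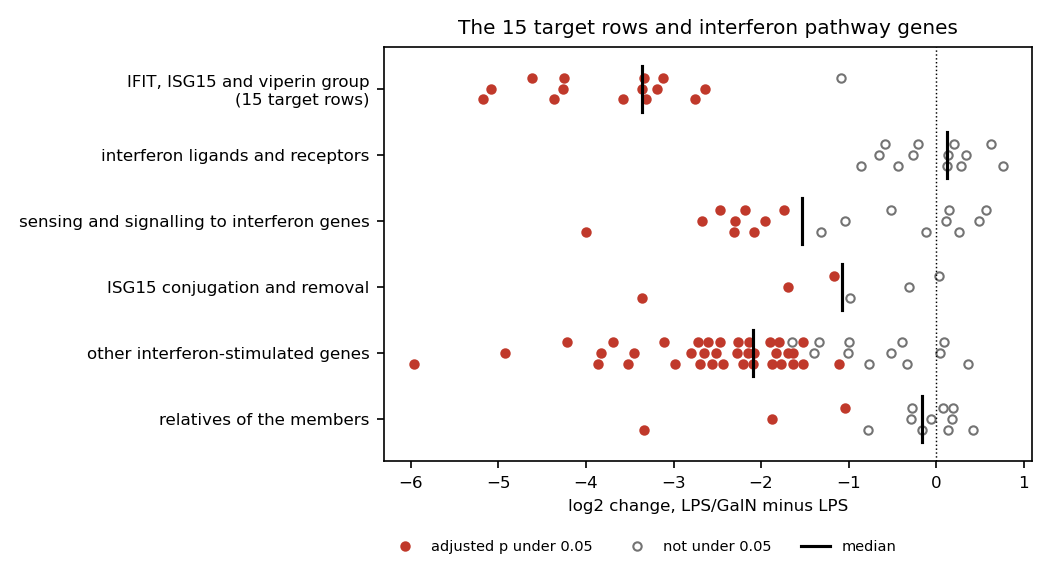
log2 change (LPS/GalN minus LPS) of the 15 target rows and of the genes in 5 lists (brightest row of each gene); filled red points passed an adjusted p of 0.05 and black bars are medians. The medians are -3.36 for the 15 rows, 0.13 for ligands and receptors, -1.53 for sensing and signalling, -1.08 for Isg15 conjugation, -2.09 for other interferon-stimulated genes and -0.16 for relatives.

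The target rows whose profile over the 6 arrays lay nearest to the mean profile of the 8 genes were sought. That mean took the brightest row of each gene, which for Ifit3 is an Ifit3b row. Nearness was the Euclidean distance between centred log2 values. The search covered rows with a gene symbol or gene name, other than the 15, that were brighter than the median of all rows. The nearest was Trim21, an E3 ligase and antibody receptor gene, at a distance of 0.31 log2 units. It read 92.0, 60.4 and 163 in LPS/GalN, against 1494, 1277 and 1460 in LPS, 14.5-fold lower. Next came a Tgtp1 row at 0.47, a pair of rows on chromosome 17 described as a glycerol phosphate transporter at 0.52 and 0.55, and a Gbp2 row at 0.58. The 5 rows were chosen for this likeness, so their falls of 12.3-fold to 17.1-fold follow from the choice.

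Summed markers of macrophages and endothelial cells were higher on all 3 LPS/GalN arrays than on any LPS array. All 11 macrophage and all 11 endothelial markers were above background on all 6 arrays. The summed intensity of 11 Kupffer cell and macrophage markers was 19389, 18272 and 21202 in LPS/GalN, against 9642, 12255 and 13228 in LPS, with a median log2 change of 0.83 and 0 of 11 past the threshold. That of 11 sinusoidal endothelial markers was 17975, 15111 and 15292 against 7494, 7453 and 11211. Of these 11, 3 were higher past the threshold (Pecam1, Egfl7 and Tie1), as were 0.654% of all rows. The groups overlapped for the macrophage markers Vsig4, Marco and Adgre1. They also overlapped for the endothelial markers Tek, Kdr and Cdh5, the last with a log2 change of -0.03. The other markers of both lists had all LPS/GalN values above all LPS values, as had 12.9% of all rows. That of 11 neutrophil markers was 2366, 1461 and 1568 against 3253, 4725 and 4700, with S100a8 and S100a9 lower past the threshold (log2 changes of -1.66 and -1.55) and 7 of 11 markers above background on all arrays. Without S100a8 and S100a9, the other 9 summed to 1179, 638 and 642 in LPS/GalN, against 949, 1569 and 1352 in LPS, and the groups overlapped. For B cells and plasmacytoid dendritic cells, 0 of 9 markers passed the threshold and 5 were above background on all arrays. Their sums, 3671, 3258 and 3511 against 4120, 4128 and 4635, were mostly Bst2 and a row listed as Tcf4. Bst2, also in the list of other interferon-stimulated genes, read 2487, 1962 and 2325 in LPS/GalN, against 2941, 2608 and 3347 in LPS. The row listed as Tcf4 lies on chromosome 19, and its match to that gene is uncertain. These sums are therefore not a measure of those cells. The part of any of these cells in the lower interferon-stimulated transcripts was not tested.

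**Figure D4:**
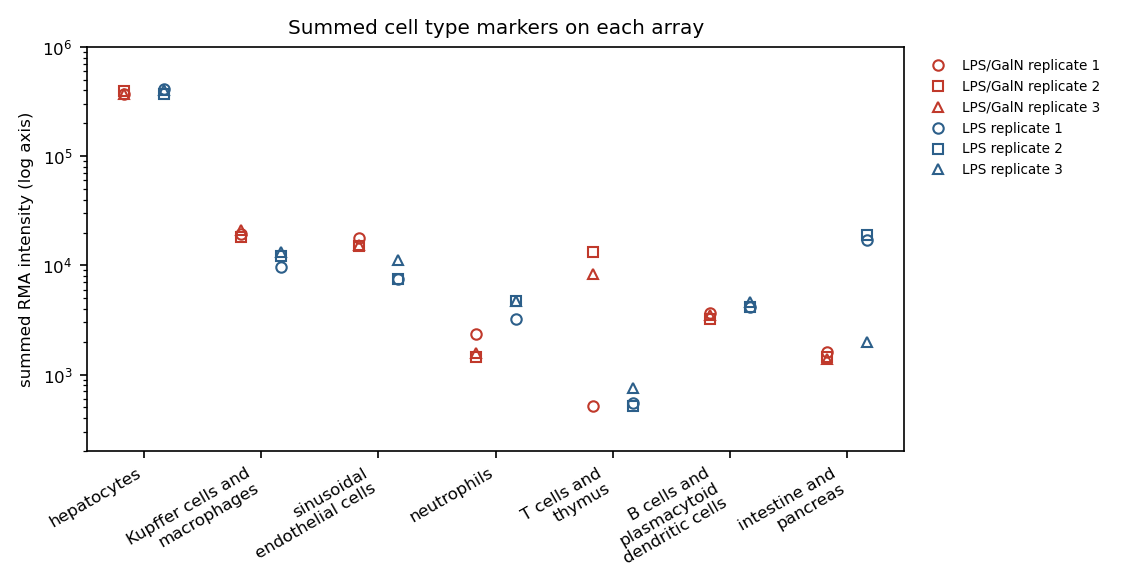
Summed RMA intensity (log axis) of the markers of each cell type or organ on each array, LPS/GalN in red left of LPS in blue. The B cell and plasmacytoid dendritic cell sums are mostly Bst2 and a row of uncertain match. Hepatocyte sums, mostly of very bright markers, overlap, macrophage and endothelial sums are higher on all 3 LPS/GalN arrays, thymus markers are high on LPS/GalN replicates 2 and 3 (13235 and 8364), and intestine markers are high on LPS replicates 1 and 2 (16986 and 18793).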

How the data were processed

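The authors deposited RMA intensity on the linear scale, 1 table for each array; RMA is named in the submitters' processing notes, and its version is not given in the sources used here. The distributions of the arrays nearly coincide, so a global change of RNA per cell would be removed. The deposited value table of the whole series holds 18076 rows, those reaching 50 on every array, and served as an alternative. Targets are described by gene name and mm9 coordinates. Replicates came from separate treatments, per the labels.

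Intensities were converted to log2 and compared with limma 3.58.1 (lmFit and eBayes, group as the only term, two-sided, 4.09 prior degrees of freedom) in R 4.3.3, with Benjamini-Hochberg adjustment over all 44170 target rows and an adjusted p under 0.05 as threshold. Dim rows were kept. A negative difference means lower in LPS/GalN. A list gene of several rows was read from the row with the highest mean. The steps were tested on simulated data.

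The genes, lists and markers were chosen with earlier results of these data known, so they are described by counts beside all rows and no list was tested. Symbols came from descriptions and RefSeq accessions; 1 Isg20 row was matched by synonym and 2 Ifit3 rows by description lie at Ifit3b. Named were all 15 rows, up to 5 genes per list by smallest p, fixed ligands, receptors and signalling genes, and the 5 nearest profiles; 1 of the fixed signalling genes is not reported here. Promoters are from RefSeq on GRCm38.p6, a build other than that of the arrays, and no coordinates were converted.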

Additional observations from a re-analysis of the deposited data

How the results depend on the processing

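With 3 mice a group, precision is limited by their number, and rows near the random-probe level bound small changes only. Every one of the 15 rows that an alternative held was lower in LPS/GalN, with 0 reversed. Between 13 and 15 rows passed the threshold, except without both LPS replicates 1 and 2 (0 of 15; 0 genes of every list) and with 1 row per gene description, which has 9 rows (9 of 9). Leaving out 1 array at a time gave 13 to 14 rows, with medians of -3.81 to -3.15. The middle Isg20 target passed with rows above background on at least 3 arrays (adjusted p = 0.0482), a trended robust variance (0.00608), a common median (0.0429), an offset of 50 (0.0148) and the value table (0.0154). For ligands and receptors, 1 gene was lower with the trended variance, the offset or the value table, against 0. Of the relatives, 1 was lower with the replicate block, in leave-one-out at the lowest (2 at the highest) and without LPS/GalN replicates 2 and 3. Without LPS/GalN replicates 2 and 3, 2 sensing, 1 conjugation and 17 other interferon-stimulated genes were lower. In both settings without a pair of arrays, 1 array stands for a group and is assumed to vary like the other group. The difference between LPS/GalN replicate 1 and LPS replicate 3, chosen after seeing the data, is given above. No pairing of mice by replicate number was detected. Correlations of same-numbered deviations over rows were 0.002, -0.004 and 0.02, and those of different numbers were -0.063 to 0.058. With 3 arrays a group, this cannot exclude pairing. A fit with the replicate block called 14 of 15 rows lower, with 1030 of all rows lower against 1382 without it.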
